A study of Coilia nasus with 12 samples.

Results

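The genes described here are a pair whose products are known from mucus: every unigene named MUC5AC or FCGBP in a transcript assembly of the stomach of Coilia nasus, an anchovy that migrates between sea and river. A unigene is a group of assembled transcripts treated as 1 gene. Matching the deposited gene names, without regard to case, found 6 MUC5AC and 5 FCGBP unigenes among 63567 unigenes, of which 18158 carried a name. The study sequenced the stomachs of 6 individuals of the food intake condition and 6 of the no food intake condition, which served as control, with 1 library per fish. No strain, age, sex or feeding time is given in the labels for either group. The source is labelled gastric mucosa, whereas the labels' protocol describes extraction from the stomach of each fish, alike in both groups. Values are TPM (a transcript's share of the library's transcripts, corrected for its length), so they can be set side by side between unigenes, but read depth is unknown.

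MUC5AC is a secreted mucin. In mammals the surface mucous cells of the stomach pack it into granules and release it, and it swells into the gel that shields the epithelium from acid and pepsin. Gel-forming mucins join end to end through cysteine-rich von Willebrand D domains. FCGBP, named for its binding of the Fc part of immunoglobulin G in humans, is a secreted protein made largely of repeats of the same domain and is found with mucins in intestinal mucus. Since both families share this domain, similarity searches can place a fish sequence under either name or under another D domain protein. Among the 11 unigenes, 8 carried a von Willebrand D domain in the deposited Pfam column, and the KEGG orthologue given for all 5 FCGBP unigenes was alpha-tectorin, a D domain protein of the inner ear.

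Libraries differed in ways that the feeding labels do not give. A group of 9 mitochondrial unigenes whose best match is chicken summed to 31.1 to 97.2 TPM in 7 libraries and was listed at 0 in the remaining 5. The set of 7 holds fish 1, 5 and 6 of the food intake group with fish 1, 2, 4 and 6 of the no food intake group, and results are given below within each set. In food intake 6, 7 unigenes that resemble ribosomal RNA took 64.2% of the TPM, against at most 26.9% in any other library, so "rescaled" below means TPM after leaving these out and restoring the total. Rescaling moved the median log2 difference of all tested unigenes to 0.06, against -0.04 as deposited. All 7 symbols of a gastric gland marker list had unigenes, 32 in all, which summed to 108909 to 372254 TPM with food intake and 58296 to 367870 TPM without (two-sided exact permutation test, p = 0.494). Of 9 enterocyte marker symbols, 6 had unigenes, summing to 47.5 to 307 TPM with food intake and 145 to 342 TPM without, and the intestinal regulators CDX1 and CDX2 had none. No food intake 3 had the lowest gland sum and the highest sum of smooth muscle markers, 26489 TPM, where the other libraries held at most 6714 TPM. Exocrine pancreas markers summed to 363 TPM in food intake 6 and to at most 105.5 TPM in any other library. Blood cell markers were highest in food intake 6 (624 TPM) and no food intake 3 (747 TPM), against at most 303 TPM elsewhere.

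Feeding groups overlapped for every MUC5AC and FCGBP unigene, and none passed the test. Groups were compared with limma on log2(TPM + 1), a scale that understates changes of low values, in 40142 unigenes that reached 1 TPM in at least 6 libraries, and p-values were adjusted over all of them. Of the 11 unigenes, 7 reached that level and 4 did not. limma called 0 of the 7, where 0.0% of all tested unigenes were called. At an unadjusted p under 0.05 it found 1 of the 7, beside 6.27% of all tested unigenes (997 higher and 1521 lower with food intake as deposited, 2279 and 1014 after rescaling). The food intake mean was the higher on the log scale in 4 of the 7, where 46.0% of all tested unigenes lay above 0. Groups that do not overlap were found in 0.167% of tested unigenes and in 0 of these 7. In bulk tissue, fewer cells of a type cannot be told apart from less RNA per cell. The mean TPM over all 12 fish ordered the unigenes from a short FCGBP unigene (10346) through a long FCGBP (2842) and the main MUC5AC unigene (2782.5), a second MUC5AC (963) and the remaining FCGBP unigenes (343, 71.9 and 4.16) to the rat-matched MUC5AC unigenes (3.17 to 0.791).

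**Figure D1:**
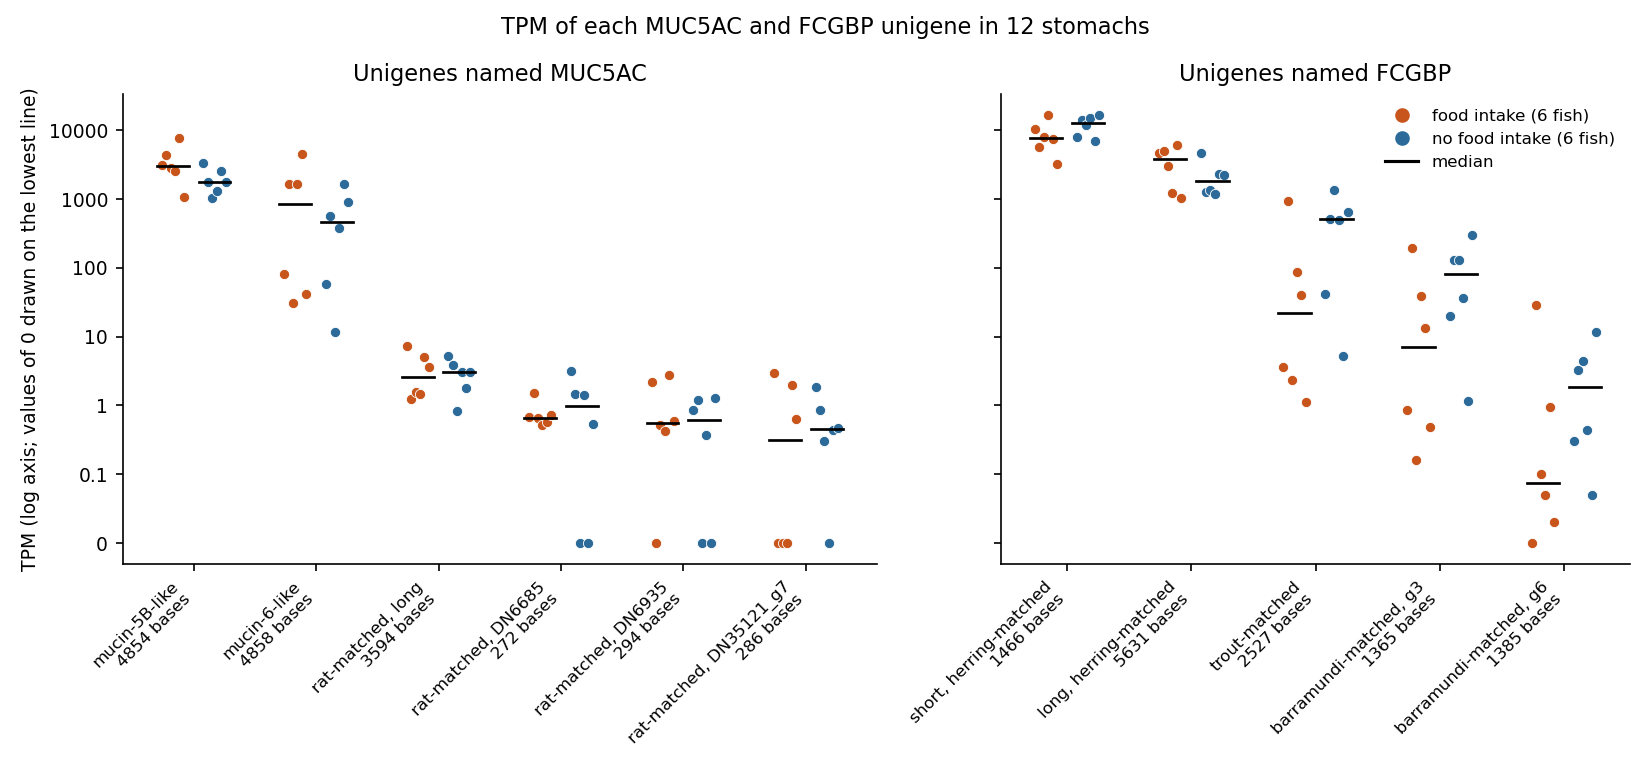
TPM of each unigene named MUC5AC (left) and FCGBP (right) on a log axis, 1 point per fish, food intake (orange) left of no food intake (blue), with the group median as a bar and values of 0 on the lowest line. The 4 herring-matched unigenes lie at 11.9 TPM or more in every fish, the trout- and barramundi-matched FCGBP unigenes spread over several orders of magnitude, the rat-matched MUC5AC unigenes reach at most 7.28 TPM, and the groups overlap for each unigene.

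Most MUC5AC signal came from a unigene of 4854 bases (TRINITY_DN35472_c1_g2), assembled as 32 transcripts. Its best protein match was mucin-5B-like of the Atlantic herring, mucin-5B being a close relative of mucin-5AC, and it is called mucin-5B-like here. It ranked 37 by mean TPM in the whole table. It had 3142, 4331, 2829, 2562, 7709.5 and 1058.5 TPM in food intake fish 1 to 6, against 3356, 1792, 1019, 1316, 2515 and 1760.2 TPM in no food intake fish 1 to 6. Food intake 5 stood highest, food intake 6 and no food intake 3 were lowest, and 5 of 6 food intake fish exceeded the no food intake median. The means were 3605 ± 2269.9 TPM with food intake and 1959.6 ± 852 TPM without (SD, n = 6 each), a log2 difference of 0.75 (SE 0.49, limma, adjusted p = 0.836). Without food intake 6 the difference was 1.05 (limma, adjusted p = 0.340). With all 12 fish after rescaling it was 0.90 (limma, adjusted p = 0.556). As deposited, the log2 difference was 0.61 within the 7-library set and 0.98 within the 5-library set. Across the 12 libraries as deposited, this unigene followed the summed gland markers with r = 0.78, and food intake 6 and no food intake 3 were lowest in both. In food intake 6, unigenes that resemble ribosomal RNA took 64.2% of the TPM, leaving a smaller share for every other unigene. The part of that share, or of gland content, in the level of the mucin-5B-like unigene was not tested.

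A MUC5AC unigene of nearly the same length, 4858 bases (TRINITY_DN35370_c1_g1, 23 transcripts), varied far more between fish. It matched mucin-6 of the herring, and mucin-6 is the gel-forming mucin of the deeper gland cells in the mammalian stomach. Its KEGG orthologue was mucin-2, the main mucin of the intestine. Its level was 80.2, 1640.5, 31.1, 1645, 4568 and 41.7 TPM in food intake fish 1 to 6, against 58.0, 560.3, 11.9, 380.4, 1642 and 903 TPM in no food intake fish 1 to 6. In each group some fish lay below 100 TPM and the rest far above: the low ones were fish 1, 3 and 6 of the food intake group, and fish 1 and 3 of the other group. The highest fish exceeded the lowest 385-fold. On the log2 scale its SD over fish was 2.78, larger than that of 99.5% of the 4882 unigenes averaging 10 TPM or more, which had a median SD of 0.70. Its log2 difference between feeding groups was 0.42 (SE 1.31, limma, adjusted p = 0.976). This difference took the other sign, -0.38, within the 7-library set and -0.44 without no food intake 3. Within the 5-library set it was 1.61 (SE 2.74). It made up 1.09% to 39.1% of summed MUC5AC TPM with food intake and 1.15% to 39.5% without.

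The other 4 MUC5AC unigenes had their best match in a mucin of the rat and were scarce. The longest, of 3594 bases (TRINITY_DN35121_c0_g1), had 7.28, 1.23, 1.55, 1.45, 4.98 and 3.60 TPM with food intake, against 5.27, 3.93, 0.83, 3.05, 1.82 and 3.02 TPM without. Feeding group made little difference to it (log2 difference 0.05, SE 0.38, limma, adjusted p = 0.991), and the sign turned when any of 5 libraries was left out. The difference was 0.37 within the 7-library set and 0.08 within the 5-library set. The library set separated it: 3.02 to 7.28 TPM in the 7 libraries with chicken-matched transcripts, against 0.83 to 1.82 TPM in the other 5, with no overlap (log2 difference 1.17, SE 0.27, limma, adjusted p = 0.0252). limma called 2.01% of all tested unigenes between the library sets (1.79% as higher in the 7), and 14.3% of the 196 tested unigenes with a rat best match. Sets that do not overlap were found in 2.04% of all tested unigenes. It was the only one of the 7 tested MUC5AC and FCGBP unigenes called there. The 3 short ones (TRINITY_DN6685_c0_g1 of 272 bases, TRINITY_DN6935_c0_g1 of 294 bases and TRINITY_DN35121_c0_g7 of 286 bases) reached at most 2.94 TPM with food intake and 3.16 TPM without, and were listed at 0 in 1 or more libraries each.

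**Figure D2:**
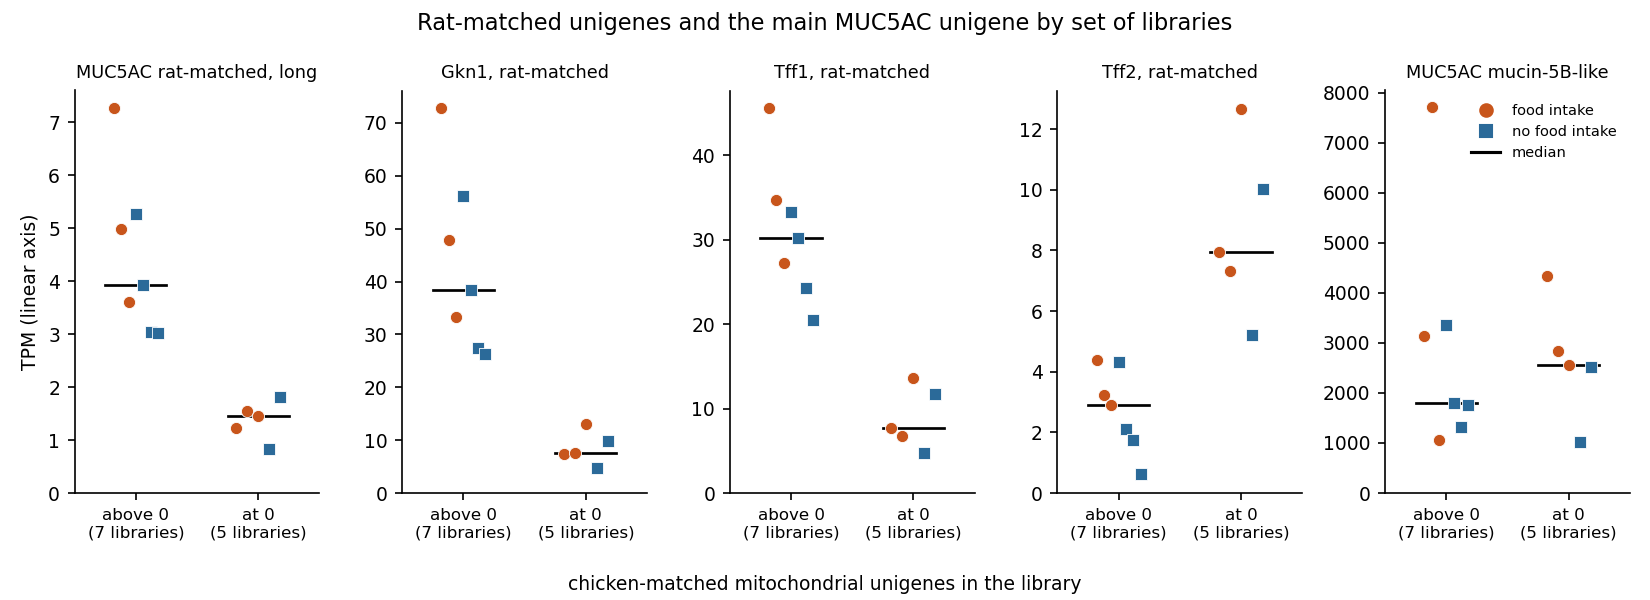
TPM on linear axes in the 7 libraries with chicken-matched mitochondrial unigenes above 0 (left in each panel) and the 5 with them at 0 (right), for the long rat-matched MUC5AC unigene, 3 other rat-matched stomach genes and the mucin-5B-like MUC5AC unigene; circles are food intake, squares no food intake, bars medians. Rat-matched MUC5AC, Gkn1 and Tff1 are higher in the 7 libraries without overlap, Tff2 is lower there, and the mucin-5B-like unigene (medians 1792 and 2562 TPM) overlaps between the sets.

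Other rat-matched products of the stomach surface varied in step with the long rat-matched MUC5AC unigene. Gkn1, a gastrokine secreted by surface mucous cells in mammals, had 26.4 to 72.7 TPM in the 7-library set and 4.78 to 13.1 TPM in the 5-library set, and its r with this unigene over the 12 libraries was 0.98. Tff1, the trefoil peptide that accompanies mucin-5AC in mammals, had 20.4 to 45.6 TPM in the 7-library set and 4.70 to 13.6 TPM in the 5-library set (r = 0.96). Rat-matched Tff2 and Pgc, both genes of gland cells, ran the other way between the sets. Tff2, the trefoil peptide of mucous neck and gland cells, had 0.62 to 4.37 TPM in the 7-library set and 5.22 to 12.7 TPM in the 5-library set, and rat-matched Pgc, the gastricsin precursor, 29.7 to 77.5 TPM and 94.0 to 218 TPM. Within the 7 libraries alone, however, rat-matched Pgc also followed the rat-matched MUC5AC unigene, with r = 0.97, against -0.56 over all 12 libraries. Tff2 did likewise, with r = 0.83 within the 7 and -0.50 over all 12. These correlations are over libraries that share their set and are given as a description. The sets did not part rat-matched genes by surface and gland alone. Desmin of muscle (1.26 to 3.03 TPM in the 7-library set, 0.23 to 0.68 TPM in the 5-library set) was also higher in the 7 libraries. So was the pancreas marker Prss1 (1.99 to 5.35 and 0.09 to 0.83 TPM). The gland marker Chia (0.07 to 0.18 and 1.56 to 3.57 TPM) and the enterocyte marker Anpep (0 to 0.67 and 1.87 to 3.68 TPM) were lower there. The gland marker Gif (0 to 2.63 and 1.88 to 4.19 TPM) overlapped. Other rat-matched members of the muscle, pancreas and enterocyte lists overlapped as well. They were Myh11 (9.09 to 31.5 and 7.61 to 98.95 TPM), Cpa1 (0 to 5.06 and 0 to 0.8 TPM) and Fabp2 (0.11 to 0.91 and 0.71 to 2.81 TPM). So did Vil1 (TRINITY_DN15130_c0_g1, 0 to 1.93 and 1.09 to 4.38 TPM; TRINITY_DN11806_c0_g1, 0 to 0.9 and 0 to 4.7 TPM). Single genes here thus do not stand for their cell types. The source of the rat-matched transcripts was not tested.

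FCGBP was the more abundant name. Its most abundant unigene, of only 1466 bases (TRINITY_DN28967_c0_g2, 6 transcripts), matched an IgGFc-binding protein-like entry of the herring and ranked 14 by mean TPM in the whole table. It had 10575, 5717, 7996, 16682, 7478 and 3270.3 TPM with food intake, against 8088, 13878, 11768, 14996, 7081 and 16620.2 TPM without. Food intake 4 and no food intake 6 were nearly level at the top, food intake 6 was lowest, and 1 of 6 food intake fish exceeded the no food intake median. Means were 8619.8 ± 4638 TPM with food intake and 12072 ± 3831 TPM without (SD, n = 6 each), a log2 difference of -0.59 (SE 0.48, limma, adjusted p = 0.867). The difference was -1.02 within the 7-library set and 0.00117 within the 5-library set, and -0.35 without food intake 6.

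The longest FCGBP unigene, of 5631 bases (TRINITY_DN35354_c1_g1, 17 transcripts), also matched an IgGFc-binding protein-like entry of the herring but lay lower and had the opposite sign. It had 4690.1, 4967, 3065, 1206, 6135 and 1040.2 TPM with food intake, against 4586, 1255, 1366, 1194, 2334 and 2269 TPM without. Food intake 5 was highest and food intake 6 lowest, and in the no food intake group fish 1 stood well above the rest. The log2 difference was 0.58 (SE 0.54, limma, adjusted p = 0.885), and 0.87 without food intake 6. Within the 7-library set it was 0.64, and within the 5-library set 0.56. In mean TPM over all fish it was level with the mucin-5B-like MUC5AC unigene, 2842 and 2782.5 TPM, and the ranges of these neighbours in rank (36 and 37) overlapped almost fully. Only the short FCGBP unigene stood above both, and its lowest fish still fell within their ranges.

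The other 3 FCGBP unigenes lay near 0 TPM in some fish and were abundant in others. The unigene of 2527 bases (TRINITY_DN34789_c3_g1), whose best match was an unnamed protein of the rainbow trout, had 3.62, 937, 2.31, 86.8, 40.0 and 1.13 TPM with food intake, against 42.1, 519, 1341, 496, 5.28 and 643 TPM without. It was abundant in 1 food intake fish (2) and in 4 no food intake fish (2, 3, 4 and 6), and the range over all fish was 1187-fold. Its log2 difference was -3.18 (SE 1.42, 95% interval -6.17 to -0.18), the largest in size of the 7, and it did not pass (limma, unadjusted p = 0.0389, adjusted p = 0.782). Within the 7-library set the difference was -5.30 (limma, adjusted p = 0.321), with 3.62, 40.0 and 1.13 TPM in the food intake libraries and 42.1 to 643 TPM in the no food intake libraries; within the 5-library set it was -0.50. Leaving out 1 library at a time gave -4.26 to -2.51.

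A second of these 3 unigenes (TRINITY_DN30703_c1_g3, 1365 bases), with a best match in the barramundi, had 0.85, 197, 0.16, 38.9, 13.5 and 0.49 TPM with food intake, against 19.6, 129, 129, 36.4, 1.15 and 298 TPM without. The same food intake fish, 2, was the highest of its group and fish 1, 3 and 6, again the lowest of the group, lay below 1 TPM here. Its log2 difference was -2.41 (SE 1.25, limma, adjusted p = 0.803), with -4.43 within the 7-library set and 0.32 within the 5-library set. The last (TRINITY_DN30703_c1_g6, 1385 bases) came from the same assembly cluster and had at most 28.6 TPM, in food intake 2, and 11.7 TPM, in no food intake 6, while the next highest values of the groups were 0.94 TPM with food intake and 4.43 TPM without. Counting fish at 1 TPM or more, the 1365-base unigene was present in 3 of 6 food intake and 6 of 6 no food intake fish (two-sided Fisher's exact test, p = 0.182), the smallest p of 6 such tests. Together the 3 made up 0.0232% to 9.81% of summed FCGBP TPM with food intake and 0.0688% to 10.1% without.

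Most unigenes of a name did not follow each other. Over the 21 pairs among the 7 tested unigenes, Pearson's r of log2(TPM + 1) was tested with 100000 permutations and adjusted by Benjamini and Hochberg over the pairs; 2 pairs passed, 1 of them among the 9 pairs that share a name. That pair was the trout-matched and the barramundi-matched FCGBP unigene: r = 0.97 and rho = 0.96 over 12 libraries (permutation test, adjusted p = 0.0002, the smallest these permutations can give for this family). Without the 2 libraries farthest from the median r stayed at 0.97, and it was 0.96 within the 7-library set; the 5-library set is too small for a correlation. Although both were high and low in the same fish, the second was 0.0693 to 0.467 times the level of the first, so their ratio was not fixed. The low unigene of the barramundi cluster had r = 0.76 with the trout-matched unigene and 0.80 with its cluster partner, given as a description because it was not tested.

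**Figure D3:**
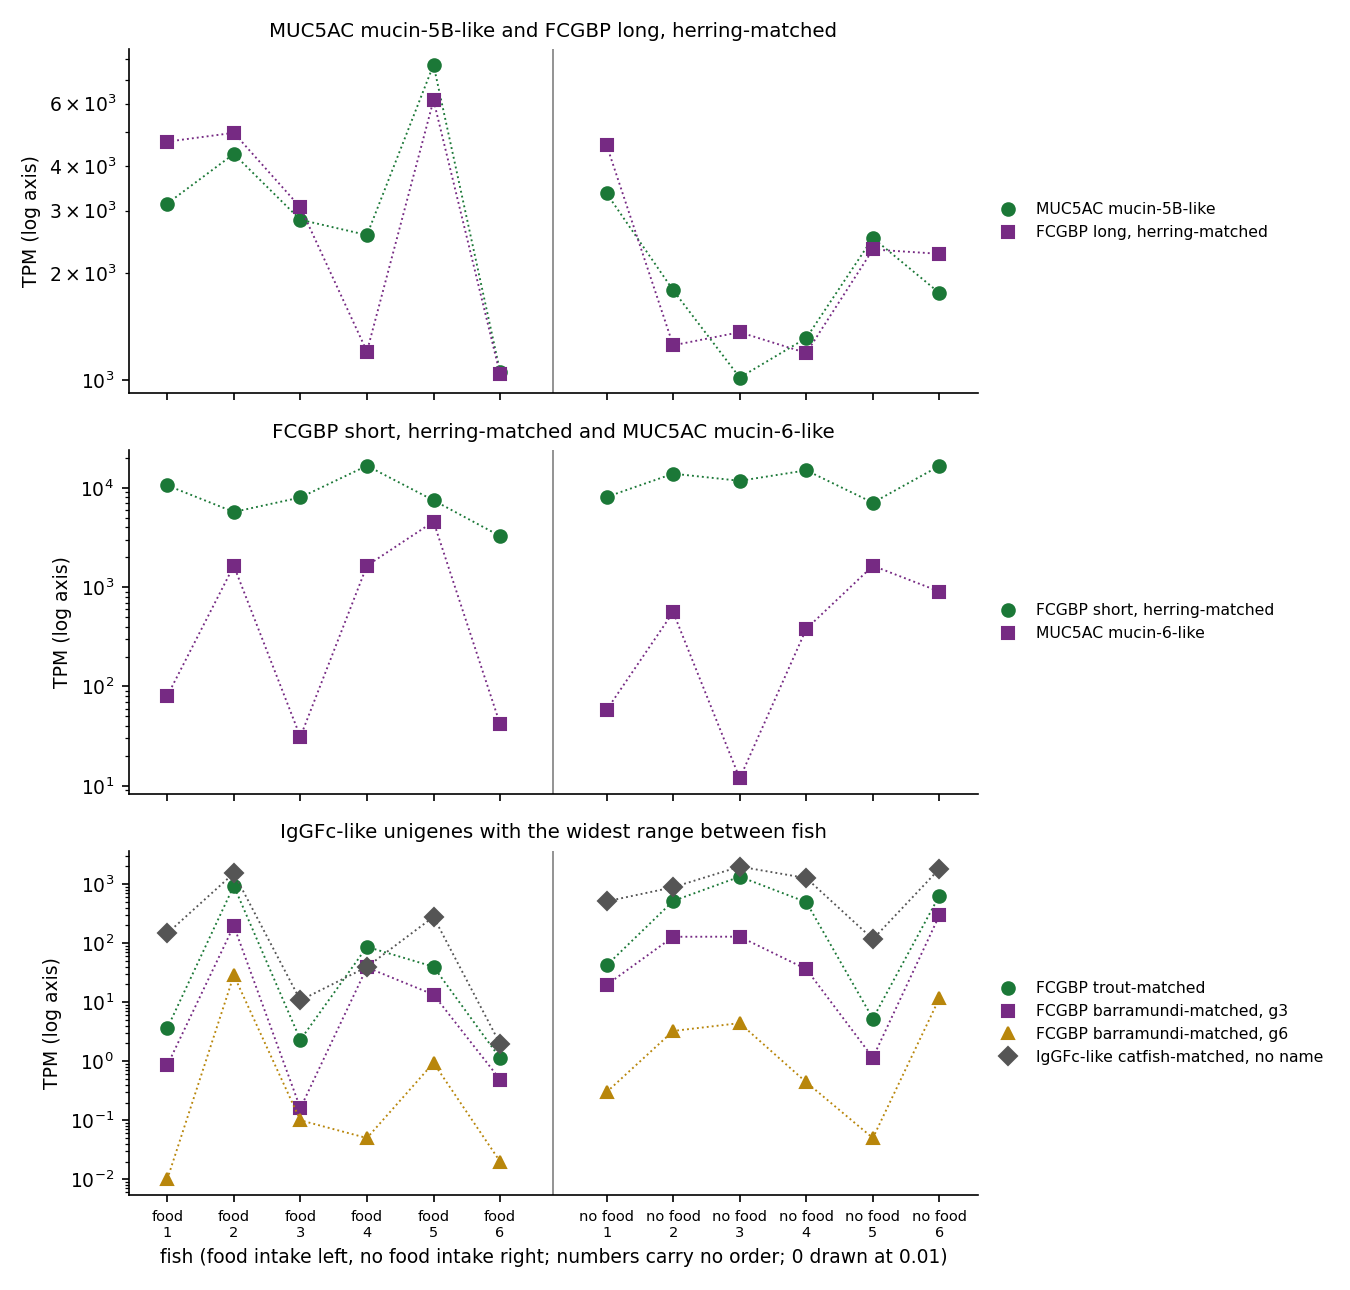
TPM on log axes for each fish, food intake left of the vertical line and no food intake right, for the mucin-5B-like MUC5AC and long FCGBP unigenes (top), the short FCGBP and mucin-6-like MUC5AC unigenes (middle) and the FCGBP unigenes of widest range with an unnamed IgGFc-like unigene (bottom); dotted lines only guide the eye, and a value of 0 is drawn at 0.01. In the top panel both unigenes are highest in food intake 5; in the bottom panel all 4 are high in food intake 2 and low in food intake 6.

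The other pair that passed joined the names. The mucin-5B-like MUC5AC unigene and the long FCGBP unigene followed each other with r = 0.87 and rho = 0.85 (permutation test, adjusted p = 0.0018), with r = 0.85 without the 2 farthest libraries (food intake 5 and no food intake 3), 0.92 within the 7-library set and 0.83 after rescaling. The highest values of both were in food intake 5 and 2. By contrast, the short and the long FCGBP unigene, which share a name and a best-matching species, had r = -0.25 (permutation test, adjusted p = 0.775). Food intake 6, where both are lowest in their group, bore on this: r was -0.76 without it and -0.83 after rescaling (permutation test, adjusted p = 0.0098), but 0.02 within the 7-library set, which holds that fish. The short FCGBP unigene and the mucin-5B-like MUC5AC unigene likewise had r = -0.15 as deposited (permutation test, adjusted p = 0.775), -0.66 without food intake 6, -0.82 after rescaling (permutation test, adjusted p = 0.0047) and 0.00489 within the 7-library set. TPM are shares of a total, and the part of that in these negative values was not tested.

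Within MUC5AC, the mucin-5B-like and mucin-6-like unigenes had r = 0.53 and rho = 0.46 (permutation test, adjusted p = 0.309 for r). That relation rested on food intake 5 and no food intake 3, without which r was 0.13. Neither passed with the long rat-matched MUC5AC unigene (r = 0.27 and 0.03, permutation tests, adjusted p = 0.775 and 0.925) over all 12 libraries; within the 7-library set r was 0.66 for the mucin-5B-like and -0.25 for the mucin-6-like unigene, untested. The short FCGBP unigene had r = 0.56 with the trout-matched one (permutation test, adjusted p = 0.309) and 0.53 with the barramundi-matched one, and within the 7-library set 0.83 and 0.76. Whether unigenes of a name are separate genes, alleles or pieces of 1 transcript cannot be told apart from the deposited table, and near-identical copies could share reads.

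**Figure D4:**
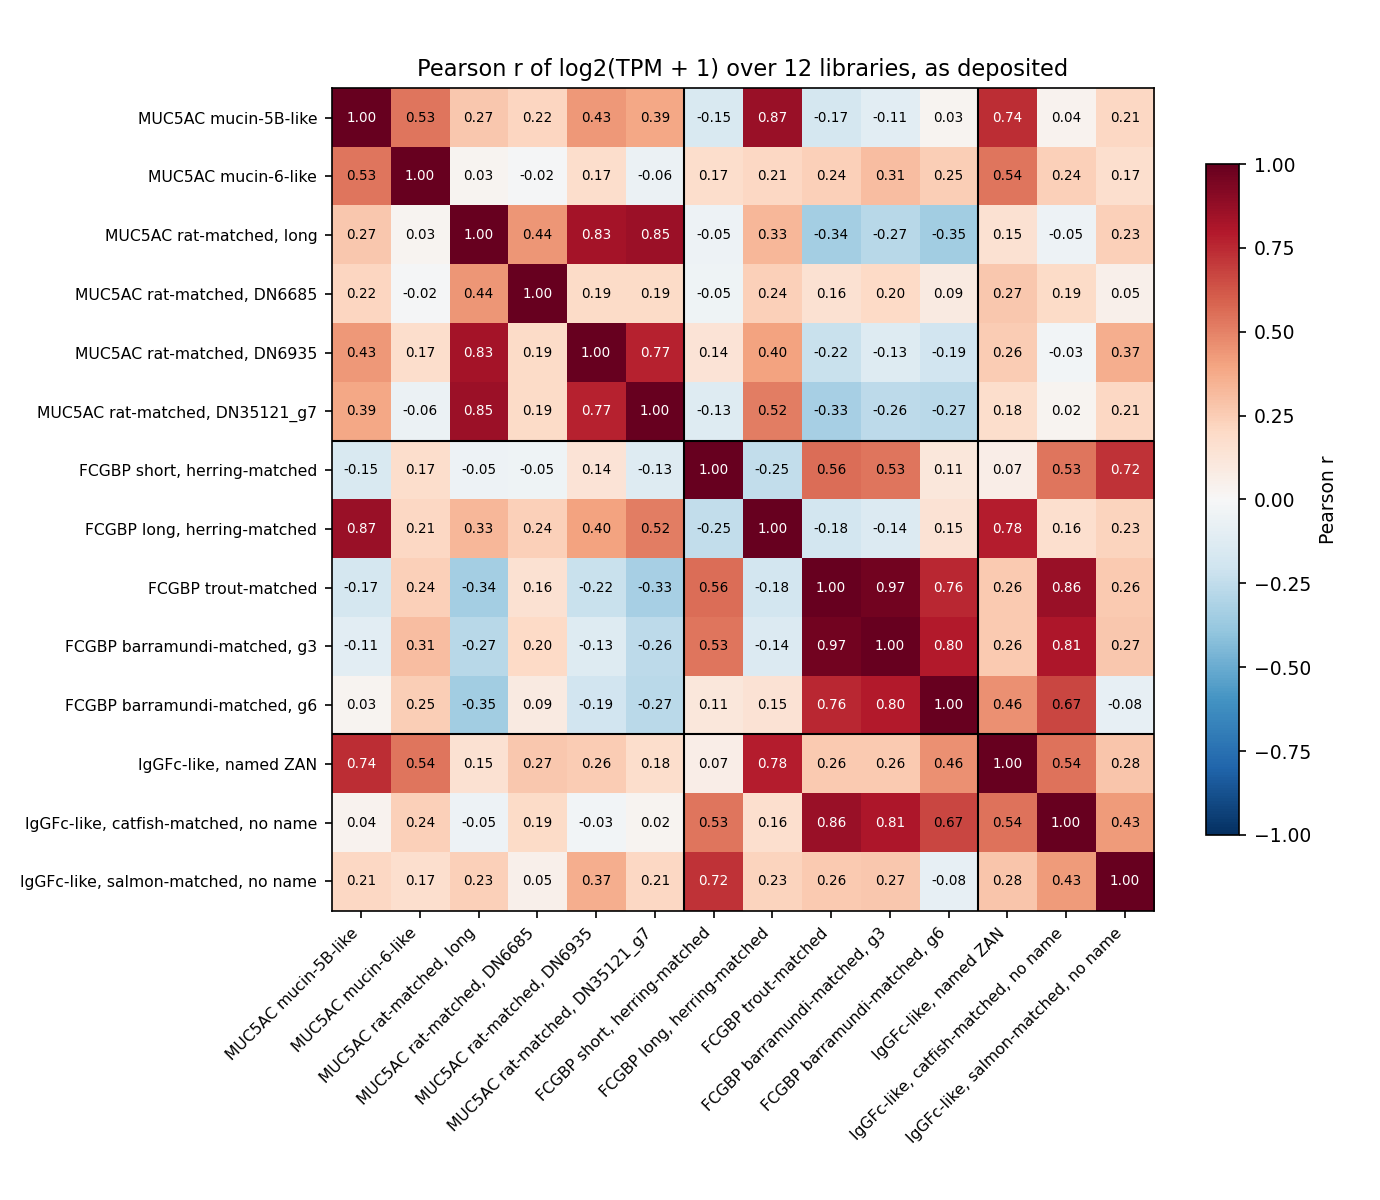
Pearson's r of log2(TPM + 1) over the 12 libraries between the 6 MUC5AC unigenes, the 5 FCGBP unigenes and the 3 most abundant unigenes of another or no name with an IgGFc-binding best match; black lines part the names. 3 blocks stand out: rat-matched MUC5AC (0.77 to 0.85 among 3 of them), the variable FCGBP unigenes with the catfish-matched one (0.67 to 0.97), and the mucin-5B-like MUC5AC, long FCGBP and ZAN-named unigenes (0.74 to 0.87).

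Further unigenes with a gel-forming mucin or IgGFc-binding best match sat under other names or none. There were 24 of them, 6 IgGFc-binding and 18 mucin, of which 9 reached the level for testing. The most abundant (TRINITY_DN35002_c0_g1, 3069 bases) was named ZAN, zonadhesin, a sperm D domain protein in mammals, while its best match was IgGFc-binding protein-like of the herring. It averaged 1410.2 ± 1269 TPM with food intake and 983 ± 359 TPM without (SD, n = 6 each; log2 difference -0.03, limma, adjusted p = 0.997). Its r was 0.78 with the long FCGBP and 0.74 with the mucin-5B-like MUC5AC unigene. An unnamed unigene matched in the channel catfish (TRINITY_DN28176_c5_g4, 1066 bases) had 147, 1535, 10.8, 39.7, 279.8 and 1.97 TPM with food intake, against 512, 888, 1985, 1269, 117 and 1825 TPM without. It was high in the fish where the variable FCGBP unigenes were high (r = 0.86 with the trout-matched one), and its log2 difference was -3.56 (SE 1.15, limma, adjusted p = 0.768).

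Next in abundance were 3 unnamed unigenes. One of 967 bases from the assembly cluster of the short FCGBP unigene (TRINITY_DN28967_c0_g1) averaged 85.6 ± 56.1 TPM with food intake and 118 ± 73.1 TPM without and had r = 0.72 with that unigene, 0.47 after rescaling. One of 449 bases from the cluster of the mucin-5B-like unigene (TRINITY_DN35472_c1_g1) averaged 13.8 ± 9.11 TPM with food intake and 6.49 ± 2.41 TPM without, with r = 0.82 to its neighbour. A mucin-2-like unigene (TRINITY_DN33523_c0_g1) was at most 3.97 TPM with food intake and 1.89 TPM without, apart from 64.6 TPM in no food intake 6.

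Summed by name, MUC5AC held 0.111% to 1.25% of all TPM with food intake and 0.104% to 0.421% without, and FCGBP 0.435% to 1.82% with food intake and 0.953% to 2.01% without. MUC5AC summed to 4946 ± 3937 TPM with food intake and 2557 ± 1134 TPM without (SD, n = 6 each; log2 difference 0.72, two-sided exact permutation test over 924 splits, p = 0.221). FCGBP summed to 12362 ± 4666 TPM with food intake and 14852 ± 3558 TPM without (log2 difference -0.35, exact permutation test, p = 0.357). Summed FCGBP was largely the short unigene, 48.3% to 92.6% of it with food intake and 63.5% to 89.7% without. The long FCGBP unigene had the sign of MUC5AC (log2 difference 0.58). Within the 5-library set both sums lay higher with food intake, by 1.01 for MUC5AC and 0.18 for FCGBP. Over all 12 libraries the sums lay in opposite directions, so the ratio of FCGBP to MUC5AC differed most. It was 4.72, 1.98, 3.86, 4.28, 1.11 and 3.90 with food intake, against 3.72, 6.69, 14.2, 9.83, 2.27 and 7.44 without. None of the 6 food intake fish exceeded the no food intake median of 7.06, but no food intake 1 and 5 lay within the food intake range. The log2 difference of the ratio was -1.07 (exact permutation test, p = 0.0714, or 0.214 adjusted over the 3 sums and ratio; the smallest p possible is 0.00216), and it was -1.26 within the 7-library set and -0.82 within the 5-library set. Single fish and quantile normalization moved summed MUC5AC and the ratio across an unadjusted p of 0.05. Rescaling did not move summed MUC5AC across it. It cannot change the ratio, since both sums of a library are multiplied by the same factor. After rescaling the log2 difference was 0.88 for MUC5AC, -0.20 for FCGBP and -1.07 for the ratio (exact permutation tests, p = 0.0714, 0.255 and 0.0714). Without food intake 6 it was 1.08 for MUC5AC (exact permutation test, p = 0.0433) and -0.07 for FCGBP. Without no food intake 5 it was -1.37 for the ratio (exact permutation test, p = 0.0195). After quantile normalization MUC5AC was at 1.12 (exact permutation test, p = 0.0498) and the ratio at -1.54 (exact permutation test, p = 0.0281), all unadjusted.

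**Figure D5:**
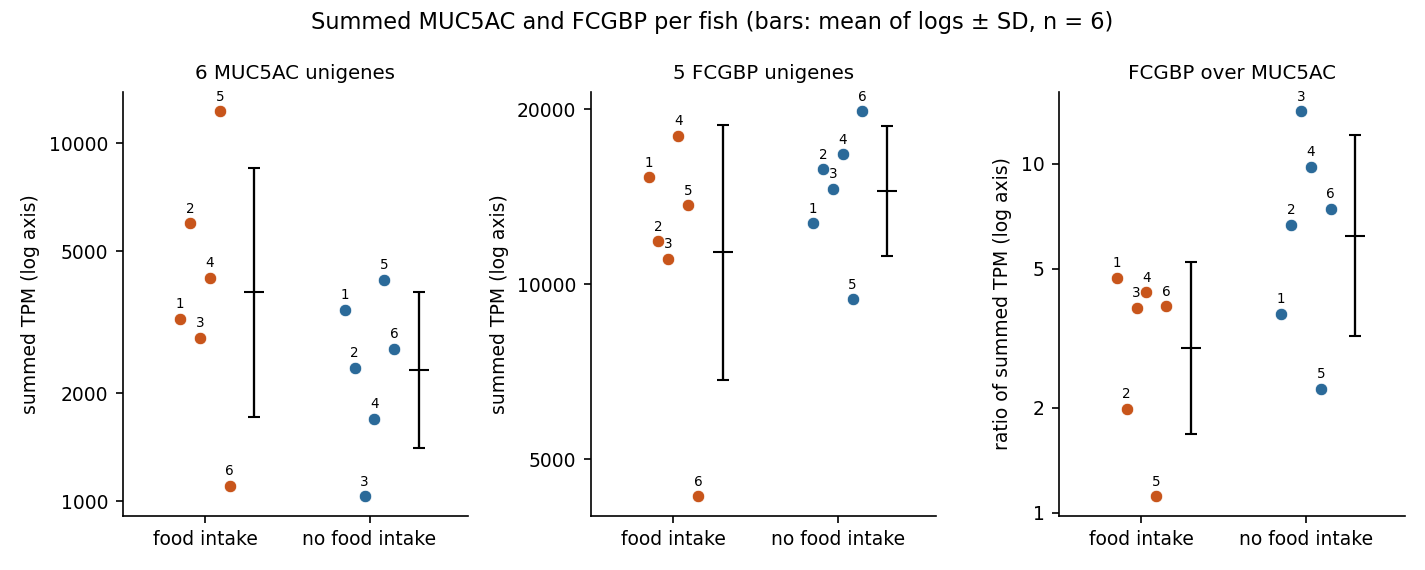
Summed TPM of the MUC5AC unigenes (left), of the FCGBP unigenes (middle) and their ratio (right) on log axes, 1 numbered point per fish, food intake left of no food intake, with the mean of the logs ± SD beside each group (n = 6). All food intake ratios lie at or below 4.72, and 4 of the 6 no food intake ratios lie above that.

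Weighting each unigene by its length, which gives its share of sequenced bases in place of its share of transcripts, brought the names closer. MUC5AC then took 1.64 ± 1.18% of the total with food intake and 0.917 ± 0.363% without, and FCGBP 2.31 ± 0.740% with food intake and 2.38 ± 0.383% without (SD, n = 6 each). On this scale the log2 difference was 0.66 for MUC5AC and -0.11 for FCGBP (exact permutation tests, p = 0.190 and 0.753). That of the ratio was -0.76 (exact permutation test, p = 0.0909).

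Among other genes of the mucus layer, 15 unigenes carried a name from a list of 31 symbols (other mucins, trefoil peptides, gastrokines and mucus lectins), and 11 of these had a mammal or bird as best match. Of the 6 that were tested, 4 lay higher and 2 lower with food intake, with a median log2 difference of 0.02 where that of all tested unigenes was -0.04. None passed at an unadjusted or adjusted p under 0.05 (limma), beside 6.27% and 0.0% of all tested unigenes. The named ones above 10 TPM were the rat-matched Gkn1 and Tff1, with 30.3 ± 26.3 and 22.6 ± 15.8 TPM with food intake and 27.2 ± 18.8 and 20.7 ± 10.9 TPM without.

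Genes for folding and releasing mucin lay higher with food intake more often than lower: 25 of 36 tested unigenes were higher and 11 lower, with a median log2 difference of 0.24. Above 0 lay 46.0% of all tested unigenes as deposited. That background was 22371 of 40135 unigenes after rescaling and 22288 of 40142 without food intake 6. The list's own counts are as deposited only. limma called none at an adjusted p under 0.05, and 3 higher and 2 lower at an unadjusted p under 0.05, beside 2.48% higher and 3.79% lower of all tested unigenes. Marker lists of gland and exocrine pancreas cells lay to the same side. Of 28 tested gland marker unigenes, 23 were higher and 5 lower (median 0.53, 2 at an unadjusted p under 0.05). All 6 tested pancreas marker unigenes were higher (median 0.93, none at that p). Summed per fish, the gland markers differed by 0.35 in log2 and the pancreas markers by 1.19 (two-sided exact permutation tests, p = 0.494 and 0.206). Some names in these lists and in the mucin folding list have more than 1 unigene. Counts of unigenes are thus not counts of separate cases. The other marker lists stood beside a background of 46.0% of all tested unigenes above 0 and a median of -0.04. Smooth muscle had 9 higher and 15 lower (median -0.04), and enterocytes 6 and 6 (median 0.04). Stratified epithelium of oesophagus and skin had 3 and 4 (median -0.18), and blood cells 3 and 4 (median -0.01). In the stratified list no unigene was named KRT5, KRT4 or TP63. The highest unigene was named krt8 (mean 1941 TPM), while its best match was Krt4 protein of the zebrafish. The counts of this list are thus of the matched symbols, not of stratified epithelium as such. The part of any of these cells in the values of the mucin folding and secretion list was not tested. The most abundant was agr2, an endoplasmic reticulum protein of the disulfide isomerase family that mouse goblet cells need to make mucin. Its level was 1511, 1071, 1311, 138, 1096 and 111 TPM with food intake, against 131, 488, 126, 295, 438 and 214 TPM without. Food intake fish 1, 2, 3 and 5 exceeded every no food intake fish, fish 4 lay among them and fish 6, with the lowest value of all 12, below them (log2 difference 1.22, SE 0.67, limma, adjusted p = 0.803). These values are as deposited. In food intake 6, unigenes that resemble ribosomal RNA took 64.2% of the TPM, leaving a smaller share for every other unigene. The r of agr2, as deposited, was 0.65 with both the mucin-5B-like MUC5AC and the long FCGBP unigene.

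The granule regulator Rab3d averaged 17.0 ± 10.4 TPM with food intake and 6.37 ± 3.98 TPM without (log2 difference 1.13, limma, unadjusted p = 0.0317, adjusted p = 0.774). Rab27a, another small GTPase of secretory granules, averaged 36.6 ± 18.7 TPM with food intake and 23.8 ± 5.62 TPM without. Its effectors SYTL2 and SYTL4, which dock granules at the membrane, had the other sign, with log2 differences of -0.35 and -0.32. Xbp1 and Ern1, a transcription factor and its upstream sensor in the response to unfolded protein, had log2 differences of 0.25 and 0.11, the unigene named Ern1 having IRE2, a relative of that sensor, as best match. The unigene named KLF4, whose best match was Krueppel-like factor 2, had 0.26. The forkhead factors Foxa1 and foxa2, which act in the gut epithelium of mammals, had -0.43 and -0.03, and the anion transporters Slc26a9 and Slc26a3 had -0.03 and -0.14. Rab3d had the lowest adjusted p of the genes named from this list.

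From a list of 17 symbols drawn up for the D domain family, 12 unigenes were tested. Of these, 2 lay higher and 10 lower, with a median log2 difference of -0.19 where that of all tested unigenes was -0.04. None lay below an unadjusted p of 0.05 (limma). Over all tested unigenes, 46.0% lay above 0 and 6.27% below that p, all as deposited. Those with a mean above 10 TPM were the ZAN-named unigene given above and 1 named SVEP1, whose best match was a complement regulator. The deposited Pfam domain of the SVEP1 unigene was Sushi, not von Willebrand D, so the counts are not of D domain proteins alone. The SVEP1 unigene averaged 37.6 ± 21.1 TPM with food intake and 17.6 ± 7.69 TPM without (log2 difference 0.89, limma, adjusted p = 0.803).

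The profiles most like those of the leading unigenes were sought among 1816 gene names averaging 10 TPM or more, by Pearson's r over the 12 libraries. For the mucin-5B-like MUC5AC unigene they were SH3BGRL3 (0.94), Bckdhb (0.90), Arhgdia (0.90), RABAC1 (0.89) and HIBADH (0.88), and r stayed between 0.84 and 0.90 after rescaling. For the short FCGBP unigene they were CNBP (0.95), eif3g (0.94), EIF3B (0.92), HSP90AB1 (0.92) and rps25 (0.91), with 0.82 to 0.89 after rescaling. All libraries share the effect of a common total, and these likenesses carry no test.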

How the data were processed

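Libraries from total RNA of 12 Coilia nasus stomachs, 6 per condition, were prepared with an Illumina mRNA kit and sequenced as paired ends, per the labels' protocols. The deposited table gives 1 TPM value per unigene and library; its header names no unit, and TPM was read from column totals of 984119 to 992092. Reads were handled with cutadapt and FastQC, per the submitters' processing notes; the unigene identifiers carry the naming of the Trinity assembler, and the quantifier and all versions were not given in the sources used here. All 12 value columns matched a sample title. Values carry no read counts, so no interval for counting error can be given.

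From the deposited TPM, unigenes with at least 1 TPM in at least 6 libraries were tested on log2(TPM + 1) with limma 3.58.1 (R 4.3.3; prior variance with a mean trend, no replicate term), and p-values were adjusted by Benjamini and Hochberg over all tested unigenes. Sums and the ratio were tested by exact permutation over samples, and pairs of unigenes with 100000 permutations (numpy 2.4.6, scipy 1.17.1, pandas 2.3.3 in Python 3.11.15; figures with matplotlib 3.10.9). The limma fit was tested on simulated data with changes planted in unigenes of small SD, so that check does not speak for widely varying members. Alternatives were pseudocounts, limits on low values, limma without the trend, the library set as a term, quantile normalization, rescaling without sequences that resemble ribosomal RNA, each library set, a replicate block and leaving out each fish.

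The members and gene lists were chosen with earlier results of these data known. Besides the members, the text names the 5 most abundant unigenes with a related best match, the most abundant unigene of each listed gene name averaging 10 TPM or more, and the 5 gene names most like the leading unigene of each name. The rat-matched genes set beside MUC5AC were chosen after their values were seen.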

Additional observations from a re-analysis of the deposited data

Results flagged for a closer look

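Within each group of 6 fish, 38 groups of values were checked for a single far fish, on TPM without logs. A fish was marked where its gap to its nearest neighbour exceeded 0.625 of the group's range, and 9 groups had one. That limit marks about 1 in 20 groups only where values are normally distributed. TPM without logs stretch high values, so the 9 cannot be set against that rate. Unigenes that follow each other are not separate cases either. Food intake 2 was the far fish in 5 of the 9 groups. It had 936.9 TPM of the trout-matched FCGBP unigene (next food intake fish 86.8 TPM), 196.9 TPM and 28.6 TPM of the barramundi-matched FCGBP unigenes (next 38.9 and 0.94 TPM), 1534.7 TPM of the catfish-matched unnamed unigene (next 279.8 TPM) and 1.51 TPM of the rat-matched MUC5AC unigene of 272 bases (next 0.72 TPM). Without food intake 2 the log2 difference of the trout-matched unigene was -4.26 (limma, adjusted p = 0.805).

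Food intake 5 stood apart in the mucin-6-like MUC5AC unigene, with 4568.0 TPM (next 1645 TPM), and in the unnamed 449-base neighbour of the mucin-5B-like unigene, with 31.0 TPM (next 13.3 TPM). In the no food intake group, fish 1 had 4586.4 TPM of the long FCGBP unigene (next 2334 TPM). Fish 6 of that group had 64.6 TPM of the mucin-2-like unigene (next 1.89 TPM).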

How the results depend on the processing

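Across all tested unigenes, limma called 0 as deposited, 2 after quantile normalization, 1 after rescaling and 0 to 1 when 1 fish was left out (1 without no food intake 4), with 2518 at an unadjusted p under 0.05. No MUC5AC or FCGBP unigene was called under any alternative run. The main MUC5AC unigene kept its sign in all of them (log2 difference 0.48 to 1.05 with 1 fish left out). The mucin-6-like unigene was at -0.38 within the 7-library set and from -0.44 to 1.09 with 1 fish left out, at its lowest without no food intake 3; leaving out food intake fish 2, 4 or 5 gave -0.04, -0.04 and -0.34. The long rat-matched unigene ran from -0.17 to 0.20, at -0.17, -0.08 and -0.00443 when food intake fish 1, 5 or 6 was left out and at -0.16 and -0.03 when fish 3 or 5 of the other group was, and it had no value at a limit of 5 TPM. Within the 5-library set the short FCGBP unigene was at 0.00117, the barramundi-matched one at 0.32 and summed FCGBP at 0.18 (exact permutation test, p = 0.7). With 1 fish left out, the short FCGBP unigene ran from -0.82 to -0.35. Summed MUC5AC reached 1.12 after quantile normalization (exact permutation test, p = 0.0498) and ran from 0.39 to 1.08 with 1 fish left out, 1.08 being without food intake 6 (p = 0.0433). Summed FCGBP ran from -0.49 to -0.07, the smallest in size without food intake 6. The ratio was -1.54 after quantile normalization (exact permutation test, p = 0.0281) and ran from -1.37 to -0.79, with -1.37 (p = 0.0195) without no food intake 5. Pairs within a name that passed numbered 1 as deposited, 2 after rescaling and 1 to 3 with 1 fish left out (3 without food intake 2). The cause of these shifts was not tested.

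With the replicate block, limma called 0 (2432 at an unadjusted p under 0.05). The main MUC5AC unigene was at 0.75 (adjusted p = 0.874) and the short FCGBP unigene at -0.59 (adjusted p = 0.923), and paired exact permutation tests gave p = 0.188 for summed MUC5AC, 0.531 for summed FCGBP and 0.0625 for the ratio. Same-numbered fish did not deviate together (r from -0.10 to 0.11, own number best in 0 of 6). The labels give such fish only a shared number. This check cannot exclude a shared batch or sampling, since the deviations also carry tissue content and library set. Depth is unknown, so values near 0 TPM carry an unknown counting error.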
